A study of Mus musculus with 2 samples.

Results

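The genes described here are 10 regulators of hair follicle formation: the secreted ligands Shh, Wnt10b and Bmp4, the secreted Wnt inhibitor Dkk4, the receptor Edar, and the transcription factors Lef1, Sox9, Lhx2, Msx2 and Foxn1. They were taken as all non-control probes whose gene name in the scanner files was one of these symbols, which gave 12 probes on 30 spots. All 10 genes had a probe well above background on both arrays, among 22719 measured gene names of 31035 on the array. The RNA came from dorsal skin of newborn mice (postnatal day 0) on the C57BL/6J background, either Sdr9c7-/- (knockout, KO) or wild type. There was 1 array for each genotype, and each array received RNA pooled from 5 animals. No difference below therefore has a replicate check, and no p-value is given. The study asked which transcripts differ in skin without Sdr9c7, an enzyme that oxidises acylceramides, lipids of the skin barrier.

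Hair follicles start as placodes, local thickenings of the embryonic epidermis. Wnt signals, read out in the nucleus by beta-catenin with LEF1, and the ectodysplasin receptor EDAR set up the placode, SHH from the placode drives its downgrowth, and BMP signals and secreted Wnt inhibitors such as DKK4 restrain placode formation. In the growing follicle, SOX9 and LHX2 mark the early stem and progenitor cells, and MSX2 and FOXN1 act in the matrix, the dividing cells at the base that give rise to the hair shaft. Newborn mouse back skin holds follicles at several stages, because they form in successive waves before birth.

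On a 1-colour array a gene is seen only through its probes, each of 60 bases. The last 30 bases of 5 of them are shown for the member that differed most and for the 2 members with 2 probes each. They are written 5′ to 3′, and capitals mark the polyadenylation hexamer where a probe end holds it. The Dkk4 bases lie at chr8:23737979-23738008 on the plus strand, and those of Bmp4 probe 1 at chr14:47003391-47003420 and of Bmp4 probe 2 at chr14:47003198-47003227, both on the minus strand. Those of Lef1 probe 2 lie at chr3:130926230-130926259 on the plus strand, while the scanner files list Lef1 probe 1 as unmapped. All of these positions are on mm9, the build of the scanner files.
Dkk4: tgactcaatccgttcaAATAAAtctttttt
Bmp4 probe 1: tccctatagctggacttttatcttaaaaaa
Bmp4 probe 2: gaaAATAAAatgagtcattattttaaagat
Lef1 probe 1: tctgaaacatggtggtaagagaagctcctt
Lef1 probe 2: cgaaaacggttgtttcggaaaaagaaaaaa
Over its whole length, G and C made up 15.0% of the bases of Bmp4 probe 2 and 38.3% of those of Bmp4 probe 1. The annotation used here is of another build, so no probe was placed in an exon or UTR.

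Signals are given relative to the 75th percentile over all probes of an array, so that 1 equals that percentile, and a difference is the log2 signal of the KO minus that of the wild type. The scaling left the median over all measured genes at −0.04. Probes differ in brightness, so signals are compared between the arrays and not between genes. As a check of the labels, the 1 probe of Sdr9c7 read 0.0479 in the KO and 0.324 in the wild type, 6.78-fold lower in the KO. The fold was 4.15 after normexp background correction, an alternative to the software's own. That correction also added an offset of 50 to every spot, which makes the folds of dim spots smaller. The Sdr9c7 spot lay in a band of rows with more scatter, so the gene has no value when those rows are left out. The source does not say which part of the gene was deleted. The tissue was whole skin by its transcripts: the 8 interfollicular keratinocyte, 6 dermal fibroblast, 8 skeletal muscle and 6 adipocyte markers listed were all measured on both arrays, whereas the series' design text speaks of epidermis. Of the probes, 76.8% exceeded background clearly on the KO array and 74.9% on the wild type array, and 0 spots were saturated. Both arrays lay on 1 slide. Array, labelling and genotype cannot be told apart.

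Of the 10 regulators, 9 stood within 1.5-fold in the KO, between −0.15 and 0.20 on the log2 scale. The exception was Dkk4, which was 2.94-fold higher in the KO. Dkk4 was thus the 1 member at least 2-fold higher, where 0.528% of all measured genes were, and 0 members were at least 2-fold lower, where 1.36% of all genes were. The count past 1.5-fold was also 1 higher and 0 lower, beside 2.36% and 6.05% of all genes. By any amount, 8 members lay above 0 and 2 below, and 43.1% of all genes lay above 0. The median of the 10 was 0.14, also without Dkk4.

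These small differences have to be read against the error that the arrays allow. Among 5176 genes with at least 2 measured probes, the SD between a gene's own probes was taken on the log2 difference. Pooled over genes, this SD was 0.25. This SD falls with signal: in 5 groups of equal size, from the dimmest to the brightest genes, it was 0.34, 0.33, 0.24, 0.18 and 0.14. The 9 members other than Dkk4 all differed by less than the SD over all genes. Against the SD of their own signal group, 7 members differed by less, and Dkk4, Lef1 and Lhx2 by more. The SD between spots of a probe was taken for the 320 probes printed often enough to leave 8 or more usable spots. For the log2 difference, it had a median of 0.06. Both values cover probe or spot error only, not differences between animals, litters or dissections.

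**Figure D1:**
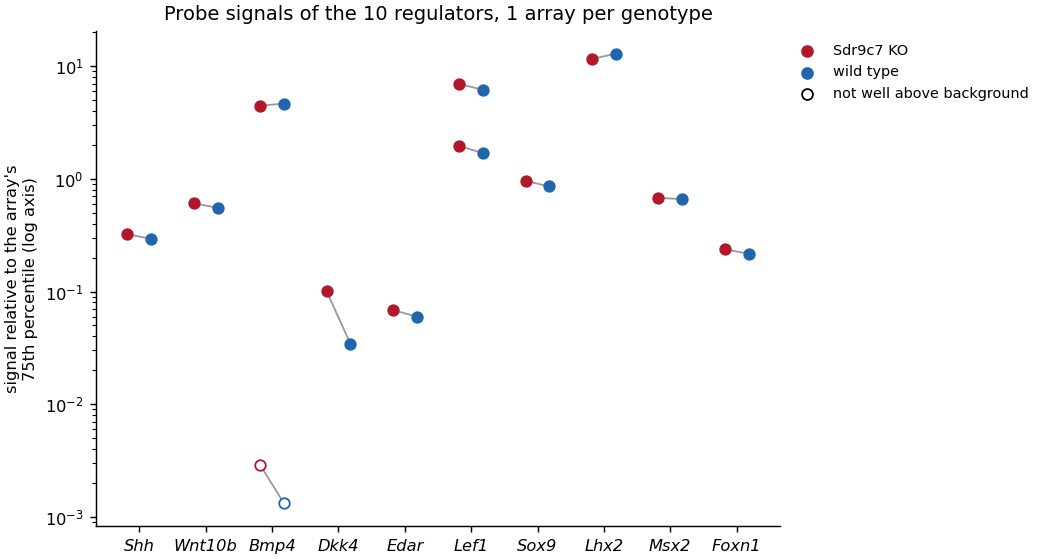
Signal of each probe of the 10 regulators relative to the array's 75th percentile (log axis), with the Sdr9c7 KO array left of the wild type array for each gene and lines joining the same probe. Dkk4 reads 0.101 in the KO and 0.0344 in the wild type, the pairs of the other well-measured probes are nearly level, and open circles mark Bmp4 probe 2, which was not well above background on either array.

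Dkk4, the secreted inhibitor that binds the Wnt co-receptors LRP5 and LRP6 and is itself expressed in placodes, had 1 probe on 1 spot. Its relative signal was 0.101 in the KO and 0.0344 in the wild type, a log2 difference of 1.56, and 99.8% of measured genes had a lower difference. The processed intensity behind these values was 194.5 in the KO and 60.03 in the wild type, and the spot was well above background on both arrays. The extraction software's own error for these intensities was 19.5 in the KO and 6.34 in the wild type, which gives 0.21 for the log2 difference. This error describes the spot and not the animals.

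Dkk4 was a dim gene. In the same 5 groups by signal, dimmest to brightest, 1.28%, 0.682%, 0.352%, 0.198% and 0.132% of them were at least 2-fold higher in the KO. Dkk4 fell in group 2, where the SD between probes of a gene was 0.33. Its size depended on the processing: normexp correction of the raw spot signals, which added an offset of 50 to each, gave 0.93, just under 2-fold. Such an offset makes the folds of dim spots smaller, so the offset and the background estimate cannot be told apart here. The other alternatives tried gave 1.56 to 1.64. The spot lay outside the disturbed parts of the array. The 211 detected spots within 8 rows and 8 columns had a median difference of 0.03 about the median of all spots, and 1.42% of them were at least 2-fold apart; of the 36 nearest, 5.56% were. The pixels within the spot were even, with an SD of 0.123 of the mean in the KO and 0.141 in the wild type. With a single probe, no second part of the transcript could be set beside it.

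**Figure D2:**
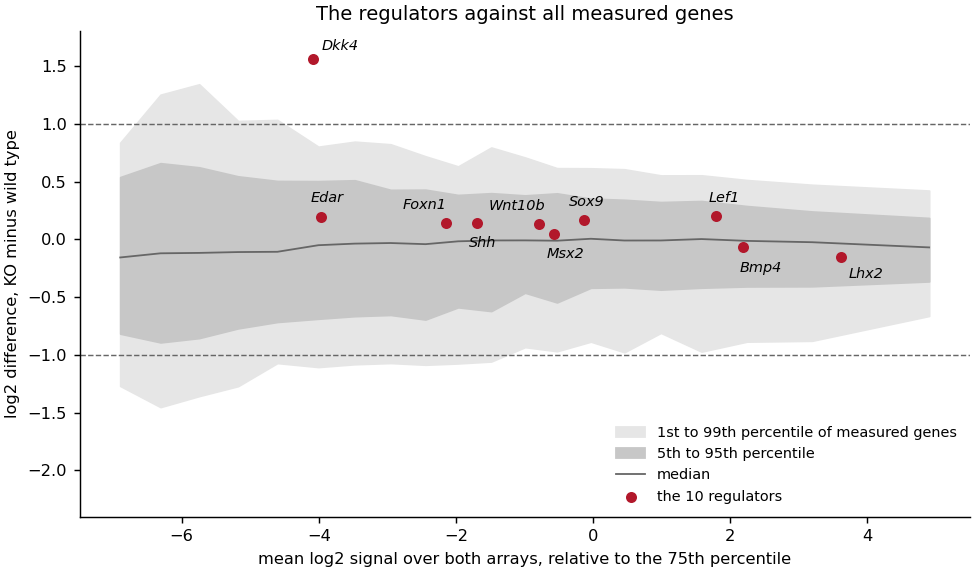
Log2 difference (KO minus wild type) against the mean log2 signal of both arrays for the 10 regulators, over the range of all measured genes in 20 groups of like signal; dashed lines mark 2-fold. Dkk4 at 1.56 lies above the 99th percentile of genes of like signal, 0.80, and the other 9 lie within the 5th to 95th percentile band.

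Among the ligands, Shh, the placode signal that drives follicle downgrowth, could be read at 10 positions of each array, all with the same probe. Its relative signal ran from 0.303 to 0.350 in the KO, with a median of 0.322, and from 0.249 to 0.331 in the wild type, with a median of 0.299. The ranges overlapped, but at every one of the 10 positions the KO spot was the higher. The log2 difference was 0.14 ± 0.09 (SD between 10 spots), and 77.7% of all measured genes had a lower one. The 10 spots are repeats of 1 hybridisation per genotype, so their agreement says nothing about animals.

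Wnt10b, a Wnt ligand expressed early in placodes, read 0.607 in the KO and 0.555 in the wild type, a log2 difference of 0.13. Bmp4, a BMP ligand made by the dermal condensate and papilla, read 4.47 in the KO and 4.67 in the wild type at probe 1, a difference of −0.06. Bmp4 probe 2 was not well above background on either array and gives no fold. Its processed intensity was 5.55 in the KO and 2.29 in the wild type, and averaging it in would have moved the gene to 0.54. The spot of Bmp4 probe 1 lay in a band of rows in which dim spots were more often 2-fold apart, and so did the spot of Msx2.

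Edar, the receptor for ectodysplasin, read 0.0685 in the KO and 0.0599 in the wild type, a log2 difference of 0.19. By signal it fell in group 2 of 5, as Dkk4 did. The promoter of Edar was the only one among 7 members with a promoter in the RefSeq table (11 windows in all) to hold CTTTGAT, the core motif bound by LEF1 and its TCF relatives, on either strand. Of all 32851 promoter windows of 300 bases, 3.73% hold it. Dkk4, Shh and Sox9 had no window and were not searched. The start of the Edar window is shown for that motif, in capitals, 233 bases before the gene start (GRCm38.p6, chr10:58675887-58675946, minus strand, from RefSeq).
Edar promoter: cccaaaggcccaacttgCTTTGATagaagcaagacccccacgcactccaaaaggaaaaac
A match of 7 letters is a description of the window and says nothing about binding.

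Among the transcription factors, Lef1, the nuclear partner of beta-catenin, was read by both of its probes. Probe 1 gave 1.96 in the KO and 1.69 in the wild type, and probe 2 gave 6.98 in the KO and 6.16 in the wild type. The probes differed from each other little, with log2 differences of 0.22 and 0.18 and a mean of 0.20, the highest member after Dkk4. This is below the SD of 0.25 between probes over all genes and above the 0.14 of genes in the brightest group, to which Lef1 belongs.

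Sox9, needed for the outer root sheath and the early stem cells, was printed at 10 positions. At the 9 that were usable its relative signal ran from 0.918 to 1.04 in the KO, with a median of 0.958, and from 0.761 to 0.929 in the wild type, with a median of 0.851. The KO spot was higher at all 9, and the ranges overlapped slightly. The log2 difference was 0.17 ± 0.06 (SD between 9 spots), a 1.12-fold difference. The tenth position read 0.920 in the KO but 0.0293 in the wild type. It was flagged as an outlier by the extraction software and lay in an area at row 513 and column 13 where 25.9% of the 27 detected neighbouring spots were at least 2-fold apart. Kept in, this 1 spot would have moved Sox9 to 0.65, past 1.5-fold.

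**Figure D3:**
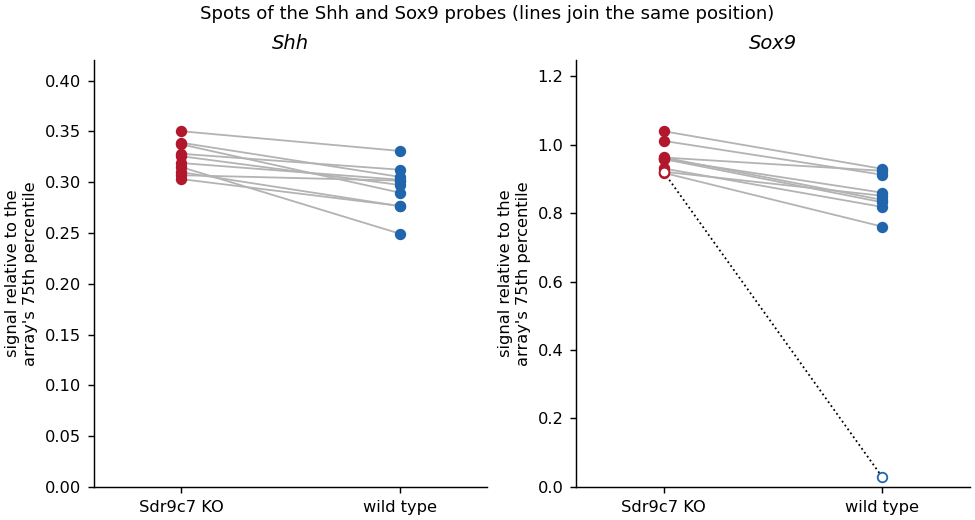
Relative signal (from 0) of every spot of the Shh and Sox9 probes, Sdr9c7 KO left and wild type right, with lines joining the same position of both arrays. Each line slopes down to the wild type, by a log2 difference of 0.14 on average for Shh and 0.17 for Sox9; the open circles joined by a dotted line are the left-out Sox9 position, which read 0.0293 in the wild type.

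Lhx2, a LIM homeodomain factor that maintains follicle stem cells, was the lowest member, at 11.6 in the KO and 12.9 in the wild type, a log2 difference of −0.15. Its spot lay near the area that disturbed the tenth Sox9 position, but of the 26 detected spots around it 3.85% were at least 2-fold apart, and of the 180 within 8 rows and 8 columns 16.7% were. Msx2, a homeodomain factor of the matrix and a target of BMP signals, read 0.680 in the KO and 0.661 in the wild type, a difference of 0.04. Foxn1, the factor missing in nude mice and needed for shaft keratins, read 0.238 in the KO and 0.216 in the wild type, a difference of 0.14. The differences of Msx2 and Foxn1 were below the SD between probes in their signal groups. That of Lhx2, in the brightest group, was below the 0.25 over all genes and slightly above the 0.14 of its group.

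**Figure D4:**
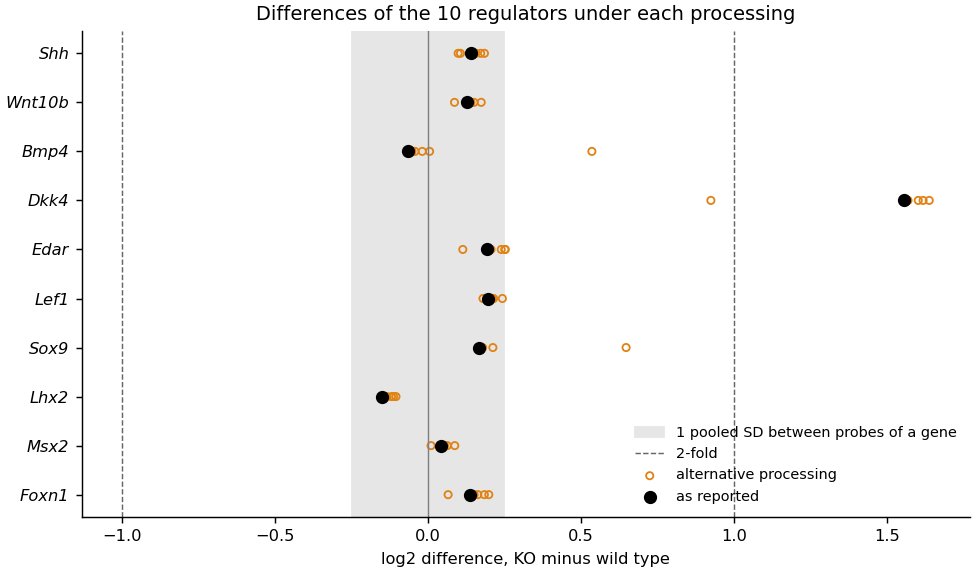
Log2 difference of each regulator (KO minus wild type) as reported (black) and under the alternative processings (open circles); the grey band is 1 SD between probes pooled over all genes (0.25) and the dashed lines mark 2-fold. As reported, only Dkk4 lies outside the band, although Lef1 and Lhx2 exceed the 0.14 of genes as bright as they are; the open circles far from the black points are Dkk4 after normexp correction (0.93), Bmp4 with its dim probe averaged in (0.54) and Sox9 with the disturbed spot kept (0.65).

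The genes around these regulators were mostly within 2-fold, with the proteins of the hair shaft and inner root sheath lower as a list. Of 137 further genes in 8 lists of follicle pathways and cell compartments, 135 were measured, 134 of them within 2-fold. This is near the share of all genes, of which 0.528% were at least 2-fold higher and 1.36% lower. The exception among the 135 was Ovol1, the gene of a zinc-finger transcriptional repressor that acts in epidermis and hair. Its signal was 2.45-fold higher in the KO (0.885 in the KO and 0.361 in the wild type, 1 probe). At least 1.5-fold higher were 3 of the 135 (2.22%, beside 2.36% of all genes) and at least 1.5-fold lower were 17 (12.6%, beside 6.05% of all genes). Of those 17, the hair shaft and inner root sheath list held 14. The other 7 lists had 3 of 116 genes at least 1.5-fold higher and 3 lower (2.59% each), with a median of 0.02, a split made after the values were seen.

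In the Hedgehog list, all 14 genes were measured and within 2-fold, past which lay 0.528% (higher) and 1.36% (lower) of all genes. The list's median was 0.10. The highest were the ligand Ihh at 0.76, a dim gene at 0.0356 in the KO and 0.0210 in the wild type, and the effector Gli2 at 0.44. The lowest was the ligand Dhh at −0.40. Gli1, Ptch1 and Hhip, which are among the targets of the pathway and are named here after their values were seen, stood at 0.38, 0.18 and 0.02. In the list, 9 genes lay above 0 and 5 below, where 43.1% of all genes lay above 0.

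In the ectodysplasin list, 10 of 11 genes were measured, all within 1.5-fold, past which lay 2.36% (higher) and 6.05% (lower) of all genes. The list's median was 0.19. Nfkb1, an NF-kappaB subunit, was highest at 0.48, with its probes at 0.18 and 0.79, and the NF-kappaB inhibitor Nfkbia stood at 0.32. The receptor Tnfrsf19 was lowest at −0.20 and the adaptor Traf6 was at −0.13. Eda2r was not well above background on either array.

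All 32 genes of the Wnt list were measured and within 1.5-fold, past which lay 2.36% (higher) and 6.05% (lower) of all genes. In the list, 17 lay above 0 and 15 below 0, where 43.1% of all genes lay above 0. The list's median was 0.03. The DKK co-receptors Kremen1 and Kremen2 were the highest, at 0.57 and 0.41. The Kremen1 probes disagreed, at −0.24 and 1.37, and 1 of them lay in the disturbed area. The receptor Fzd10 and the ligand Wnt11 were the lowest, at −0.37 and −0.36. Axin2, a general target of Wnt signalling that is named here after its value was seen, was level at 0.03.

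The BMP list had a median of −0.06 over 18 measured genes of 19. Of them, 8 lay above 0 and 10 below, where 43.1% of all genes lay above 0. Bambi was not well above background on either array. The target Id1 and the inhibitory Smad7 were the highest, at 0.44 and 0.42. The lowest were the ligand Bmp6 at −0.86, which read 0.105 in the KO and 0.190 in the wild type, and the BMP antagonist Nog at −0.49.

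Placode and stem cell genes had a median of 0.00 over 13 measured genes, from Sox21 at −0.30 and Sox4 at −0.22 to Krt17 at 0.18 and Krt15, a keratin of basal and bulge cells, at 0.34. Dermal papilla genes had a median of 0.05 over 17, with 10 above 0 and 7 below, where 43.1% of all genes lay above 0. Crabp1, a retinoic acid binding protein, was highest at 0.68, followed by Tbx18 at 0.43. Corin, a protease of the papilla, was lowest at −0.62, and Alx4 was at −0.23. Apart from Ovol1, the highest of the 12 matrix and shaft transcription factors was Trps1 at 0.33. Of the 12, 4 lay above 0 and 8 below, with a median of −0.14. The lowest were Foxq1, a factor of the hair medulla, at −0.86 and the vitamin D receptor gene Vdr at −0.40.

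**Figure D5:**
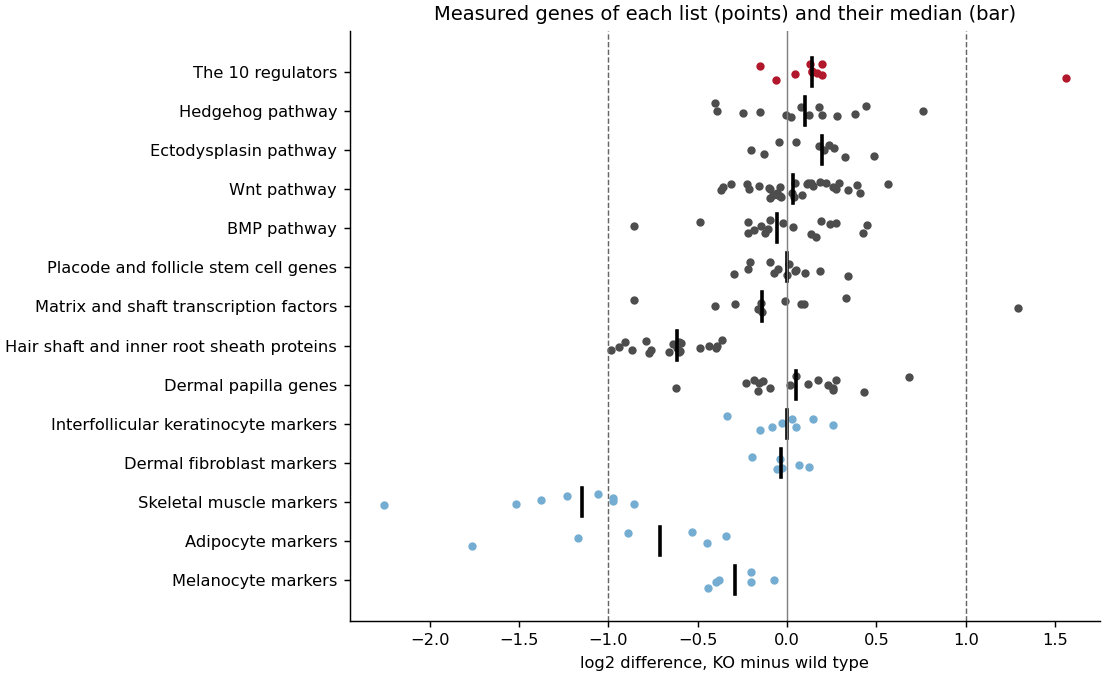
Log2 difference (KO minus wild type) of every measured gene of each list as points, with the median as a black bar; red marks the 10 regulators, dark grey the 8 pathway and compartment lists and light blue the cell type markers, and dashed lines mark 2-fold. The regulators and most pathway lists centre near 0, the hair shaft and inner root sheath proteins all lie below 0 with a median of −0.61, and the muscle and adipocyte markers have medians of −1.14 and −0.71.

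As a list, the differentiated products of the matrix stood lower than the matrix and shaft transcription factors, though Foxq1 and Vdr lay within the products' range. All 19 listed keratins and other proteins of the hair shaft and inner root sheath were measured, and all 19 were lower in the KO, where 56.9% of all genes were. Of them, 14 were at least 1.5-fold lower, beside 6.05% of all genes, and 0 at least 2-fold lower, beside 1.36%. Their median was −0.61. The summed relative signal of the 19 was 101 in the KO and 140 in the wild type. The shaft keratins Krt33b and Krt86 were the lowest, at −0.98 and −0.94, and trichohyalin (Tchh) and the inner root sheath keratin Krt71 were the least apart, at −0.39 and −0.37. In bulk tissue fewer cells of a type and less RNA per cell cannot be told apart.

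Of the 5 lists of cell type markers, those of skeletal muscle and adipocytes had lower medians than the hair shaft list, and the other 3 lay nearer to 0. For comparison, 56.9% of all measured genes were lower in the KO. All 8 skeletal muscle markers were lower in the KO, with a median of −1.14 and a summed signal of 56.6 in the KO and 109 in the wild type, from Pvalb at −2.26 to Acta1 at −0.86. All 6 adipocyte markers were lower, with a median of −0.71 and a summed signal of 49.3 in the KO and 76.3 in the wild type, from Cfd at −1.76 to Fabp4 at −0.34. The 6 melanocyte markers, of cells that reside in the follicle, were lower by less, with a median of −0.29 and a summed signal of 24.1 in the KO and 27.6 in the wild type, from Pmel at −0.45 to Dct at −0.07. Interfollicular keratinocyte markers were level, with a median of 0.00 over 8, a summed signal of 371 in the KO and 379 in the wild type, and a range from Flg2 at −0.34 to Ivl at 0.26. Dermal fibroblast markers were level too, with a median of −0.03 over 6, a summed signal of 311 in the KO and 319 in the wild type, and a range from Col1a1 at −0.20 to Pdgfra at 0.12. The part of this tissue makeup in the values of the follicle genes was not tested.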

How the data were processed

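Gene expression was measured on 2 Agilent 1-colour (Cy3) arrays, 1 per genotype. Per the file headers, the deposited intensity of each of 44397 spots was background-subtracted and spatially detrended, with Agilent Feature Extraction 11.5.1.1 named in the submitters' processing notes. The deposited series matrix holds a ratio, which was the processed intensity over 1 constant per array (2080.45 for the KO and 1905.63 for the wild type), with medians of 0.0840 in the KO and 0.0855 in the wild type and no centring of genes. Both constants equal the 75th percentile of processed intensity that the file headers list.

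Here, 192 spots with an outlier flag in either file were removed, the log2 intensity was averaged over spots of a probe, and the 75th percentile over 39417 probes of each array was subtracted. A gene's value averages those of its probes that passed the software's test against background and were not saturated, in both genotypes. Of 39429 non-control probes, 12 of which had no spot left without the outliers, 28318 were named through RefSeq (GRCm38.p6) accessions, 2204 by symbol and 174 by synonym, while 8733 kept the file's name, among them all probes of the members. A disturbed area was marked where at least 25% of the detected spots within 4 rows and 2 columns were 2-fold apart, and bands of rows where dim spots were 2-fold apart at least 3 times as often as in the median row. The summary was tested on simulated data in which all planted differences were larger than 2-fold, so the test does not cover smaller differences. Python 3.11.15, limma 3.58.1 and statsmodels 0.14.6 were used.

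No test was run, since 1 array per genotype gives no spread; the number of arrays limits the precision. The members and lists were chosen with earlier results of these data known. Genes named are the members, Sdr9c7, the 2 highest and 2 lowest of each pathway list with any at least 2-fold apart, and the highest and lowest of each marker list; 1 gene that this rule names is not reported here.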

Additional observations from a re-analysis of the deposited data

How the results depend on the processing

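Of 229 values under 11 alternatives, 224 moved by less than the SD between a gene's probes or, for counts, by no more than 1.5 times, and 0 reversed a called value. The alternatives were normexp correction with its offset of 50, 4 other scalings or normalizations, the deposited ratios and no filter on dim probes. Further ones were the brightest probe, the median over spots, and leaving out the disturbed area, the bands and non-uniform spots. Keeping flagged spots was added after seeing the data. The 5 exceptions follow. After normexp correction Dkk4 stood at 0.93, which left 0 members at least 2-fold apart. With flagged spots kept, Sox9 stood at 0.65 and 2 members were at least 1.5-fold apart. With no filter on dim probes Bmp4 stood at 0.54. Bmp4, which was near 0, also stood at 0.01 after normexp correction. The median of the members ranged from 0.09 to 0.18, and that of the hair shaft list from −0.65 to −0.57. The medians of the Wnt, BMP and placode lists lay so near 0 that 1 alternative each gave the other sign, with ranges of −0.03 to 0.08, −0.10 to 0.01 and −0.02 to 0.05. Over all genes, 120 were at least 2-fold higher in the KO and 308 lower as reported, against 33 and 103 after normexp correction and 814 and 978 with no filter. Bmp4 and Msx2 have no value without the bands, in which 3 of the 10 Shh spots also lay. No paired analysis was possible because each genotype had 1 array.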

Other observations

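RefSeq lists the clone name 9530036O11Rik as a synonym of Shh, and 2 probes of the array carry it at other positions of chromosome 5 than the Shh probe. They were not counted as Shh. One was not well above background on either array. The other read 0.326 in the KO and 0.403 in the wild type, a log2 difference of −0.31. By its coordinates it lies on the plus strand, whereas the Shh probe, at 0.14, lies on the minus strand.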
